A study of Homo sapiens with 19 samples.

Results

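GATA1, GATA2, TAL1, KLF1, NFE2, LMO2, GFI1B, ZFPM1 and LYL1 encode the transcription factors and cofactors at the centre of red cell and megakaryocyte development. These 9 genes were chosen by name from the 20033 protein-coding genes of the GENCODE v44 annotation of hg38, and were described by the peaks of acetylated lysine 27 of histone H3 (H3K27ac) at and around them. H3K27ac was mapped by chromatin immunoprecipitation followed by sequencing (ChIP-seq) in 4 leukaemia cell lines, each with 1 library. HL-60 and Molm13, both from acute myeloid leukaemia (AML), were not treated. OCI-AML3, also from AML, and K562, from chronic myeloid leukaemia, had been transduced with a lentivirus for dCas9-KRAB-mCherry, a catalytically dead Cas9 fused to a repressor domain, and with an empty sgRNA vector carrying a BFP reporter, and were sorted for both colours. OCI-AML3 and K562 share the vectors, whereas K562 is the only line that is not from AML, so effects of the disease of origin, of the line and of the library cannot be told apart. The other 14 of the 19 samples of the series were not analysed here, and a dCas9 peak list of K562 was kept out of the comparison. With 1 library per line no spread between replicates could be measured and no test was possible, so every difference below is a description of these 4 peak lists.

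In haematopoiesis, GATA2 is active in stem and progenitor cells and is replaced by GATA1 as erythroid and megakaryocytic cells mature. GATA1 acts with its cofactor ZFPM1 (FOG1) and with a complex in which the basic helix-loop-helix proteins TAL1 or LYL1 bind E-boxes beside GATA sites, bridged by the adaptor LMO2. KLF1 binds CACCC boxes of globin and other red cell genes, NFE2 binds the globin locus control region as a heterodimer with a small MAF protein, and GFI1B is a repressor needed for both lineages. H3K27ac marks active promoters and enhancers, and genes central to a cell's identity often lie in unusually wide acetylated domains.

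On the autosomes and sex chromosomes, the HL-60 list held 20772 peaks, that of Molm13 35136, that of OCI-AML3 37571 and that of K562 37424, which covered 24.1, 58.2, 70.2 and 76.8 Mb. Read numbers were not given, so depth was unknown. The fold enrichment of a peak, which is the mean over the peak of the signal relative to the local background, had a median of 3.60, 3.80, 2.95 and 2.85 in the same order, and was therefore read only within a list. Among 12 erythroid markers, K562 carried a peak within 500 bp of a transcription start site (TSS) of 9 and each AML line of 2. Of 12 myeloid markers K562 marked 6, OCI-AML3 12, Molm13 11 and HL-60 8, and of 7 lymphoid markers 2, 3, 3 and 4, while of all protein-coding genes 55.9%, 57.7%, 53.9% and 44.7% were marked in the same order. HBA1, HBA2 and SLC4A1 were the erythroid markers without a peak in any line. The authors kept uniquely mapped reads only, so that the near-identical pairs HBA1 and HBA2, without a peak, and HBG1 and HBG2, with a K562 peak, are both uncertain.

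All 9 genes carried an H3K27ac peak within 500 bp of an annotated TSS in K562, where 55.9% of all protein-coding genes did. HL-60 marked 4 of the 9 against a background of 44.7%, Molm13 6 against 53.9%, and OCI-AML3 6 against 57.7%. GATA1, TAL1 and KLF1 were marked in K562 and in none of the AML lines, a pattern shown by 4.78% of protein-coding genes. NFE2 and ZFPM1 were marked in all lines but HL-60, a pattern of 7.15% of genes, and GATA2, LMO2, GFI1B and LYL1 were marked in all 4 lines, which held for 40.5% of genes. At a q-value below 0.001 GATA2 lost its Molm13 peak (q = 0.00284), and where a peak had to cover the TSS itself ZFPM1 was marked in K562 alone. As K562 marked all 9, no gene could be marked in an AML line and not in K562, a pattern of 8.72% of protein-coding genes.

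The choice of start site changed this picture for GATA2 and GFI1B. When only the canonical TSS of each gene was considered, K562 still marked all 9, HL-60 marked 2, and Molm13 and OCI-AML3 marked 4 each, against backgrounds of 52.1%, 41.0%, 49.9% and 54.0%. GATA2 and GFI1B then joined GATA1, TAL1 and KLF1 as marked in K562 alone, which made 5 of 9 against 4.38% of all protein-coding genes. LMO2 and LYL1 were the 2 genes whose canonical TSS was marked in every line.

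**Figure D1:**
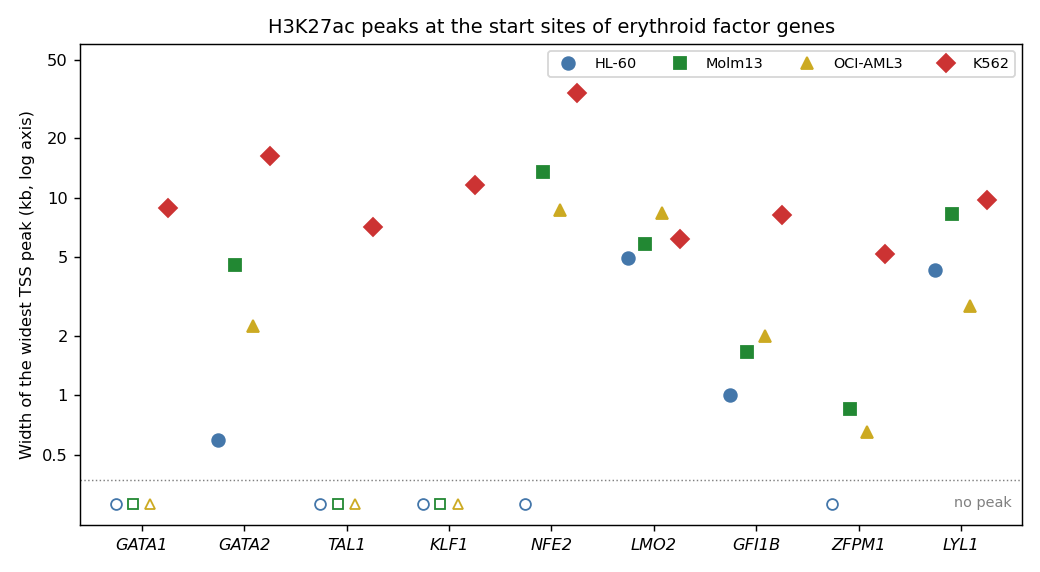
Width in kb (log axis) of the widest H3K27ac peak within 500 bp of any TSS of each gene, with 1 point per cell line and no error bars because each line has 1 library. Open symbols below the dotted line stand for no peak. K562 has the widest peak at every gene except LMO2, and GATA1, TAL1 and KLF1 have a peak in K562 alone.

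The widest TSS peak was wider in K562 than in each AML line for 8 of the 9 genes, the exception being LMO2. This held for 58.0% of the 12946 protein-coding genes with a TSS peak in any line, and TSS peaks were wider in K562 in general, with a median of 2850 bp against 2140 bp in OCI-AML3 and, for Molm13 and HL-60, 1923 bp and 1343 bp. Widths were therefore also ranked within each list, among the widest TSS peaks of all protein-coding genes that had one. By this rank the percentile was highest in K562 for 7 of the 9, all but LMO2 and LYL1, against 34.7% of the 12946 genes with a TSS peak in any line. In both counts GATA1, TAL1 and KLF1 scored because they had no AML peak to compare. The 12946 genes include 1747 without a TSS peak in K562, which could not score, whereas all 9 had one, so both background shares are low for this comparison. In K562, 6 of the 9 (GATA1, GATA2, KLF1, NFE2, GFI1B and LYL1) lay among the widest 10.0%, and 3 of them (KLF1, GATA2 and NFE2) had TSS peaks of 10 kb or more, a width reached by 4.38% of marked genes. NFE2 in Molm13 was the only gene of the set to reach that width in an AML line, and of the marked genes of the HL-60, Molm13 and OCI-AML3 lists 0.134%, 1.94% and 2.53% did. Of the genes marked in AML lines, 2 of 4 (HL-60), 3 of 6 (Molm13) and 2 of 6 (OCI-AML3) lay among the widest 10%, the background being 9.99% in HL-60 and 10.0% in the other 2 lists.

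GATA1, the zinc finger factor required for red cell maturation, lies at chrX:48786540-48794311 on the plus strand, with 4 annotated TSSs within 50 bp of each other. No AML line had a peak at any of them. K562 had a peak of 8806 bp at chrX:48781986-48790791 with a fold enrichment of 4.74 (q = 6.28e-10), at percentile 93.4 of width and 94.8 of fold enrichment in its list. The nearest peak in HL-60 began 13503 bp downstream of the canonical TSS, in Molm13 14286 bp and in OCI-AML3 13964 bp, and each of these lay at the TSS of HDAC6, which encodes a deacetylase. The acetylation of GATA1 itself was thus seen in K562 alone, whereas its downstream neighbour was marked in every line. In K562 a separate peak of 9515 bp joined the 3′ end of GATA1 to HDAC6, and together the K562 peaks covered 63.4% of the gene body, against 0.0% in each AML line. Upstream of GATA1, K562 had a peak of 2482 bp 7.2 kb before the canonical TSS that no other line shared. The stretch before the first exon is shown because it lay wholly under the K562 peak and under no AML peak, with CACCC boxes of either strand (CACCC or GGGTG) in capitals; it is on the plus strand, chrX:48786340-48786539, and holds no GATAA.
GATA1 promoter: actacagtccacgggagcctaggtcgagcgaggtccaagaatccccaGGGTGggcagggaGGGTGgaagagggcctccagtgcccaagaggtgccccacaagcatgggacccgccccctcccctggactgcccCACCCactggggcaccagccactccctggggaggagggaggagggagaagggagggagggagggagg

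GATA2, the related factor of stem and progenitor cells, lies at chr3:128479427-128493201 on the minus strand and has 10 annotated TSSs. HL-60 had a TSS peak of 591 bp (fold enrichment 4.36), Molm13 of 4547 bp (3.70), OCI-AML3 of 2250 bp (3.11) and K562 of 16199 bp (4.75). The K562 peak covered all 10 TSSs to within 500 bp, whereas the peaks of HL-60, Molm13 and OCI-AML3 reached 2, 5 and 4 of them. In the AML lines these were inner start sites, next to that of the antisense gene GATA2-AS1, and the canonical TSS lay 3629, 1345 and 2748 bp away from the nearest peak in HL-60, Molm13 and OCI-AML3. A ChIP-seq peak carries no strand, so acetylation there cannot be assigned to GATA2 or to GATA2-AS1. The K562 peak ranked at percentile 99.0 of width, the Molm13 peak at 88.6, the OCI-AML3 peak at 52.7 and the HL-60 peak at 14.3. It was 3.56 times as wide as the Molm13 peak, and 5.14%, 28.1% and 13.9% of its bases were also under a peak in HL-60, Molm13 and OCI-AML3.

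The reverse was seen upstream of GATA2. A region of 2752 bp at chr3:128523025-128525776, 29.8 kb before the canonical TSS and at no protein-coding TSS, carried a peak in HL-60 (fold enrichment 4.78), Molm13 (7.70) and OCI-AML3 (3.98) and none in K562. In HL-60 and OCI-AML3 it held the widest peak within 50 kb of GATA2, 1425 and 2450 bp wide. Of the 92 regions obtained by merging the peaks of the 4 lines within 50 kb of the 9 genes, 3 had this pattern of all AML lines without K562, close to the 3.88% of all merged regions, the others lying 26.0 kb upstream of KLF1 and 35.9 kb upstream of LYL1. The promoter of GATA2, chr3:128493202-128493451 on the minus strand, is shown because no AML line marked this start although each had a peak inside the gene. CACCC or GGGTG is in capitals, and no GATAA occurs.
GATA2 promoter: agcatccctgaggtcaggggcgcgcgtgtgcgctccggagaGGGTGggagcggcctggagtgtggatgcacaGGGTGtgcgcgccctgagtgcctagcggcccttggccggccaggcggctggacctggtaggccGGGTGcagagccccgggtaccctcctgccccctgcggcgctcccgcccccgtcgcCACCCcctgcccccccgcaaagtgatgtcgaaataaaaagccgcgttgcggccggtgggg

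ZFPM1, the zinc finger cofactor through which GATA1 acts at many of its targets, lies at chr16:88453280-88537031 on the plus strand. Its TSS peak was 854 bp wide in Molm13 (fold enrichment 4.49), 654 bp for OCI-AML3 (2.58) and 5191 bp for K562 (3.81), and HL-60 had none. The Molm13 and OCI-AML3 peaks were narrow for their lists, at percentiles 11.6 and 5.74, and ended 278 and 229 bp before the canonical TSS, whereas the K562 peak covered the start and ranked at 79.3. The K562 peak was 6.08 times as wide as the Molm13 peak, the largest such ratio of the 6 genes marked in an AML line. HL-60 had no peak within 50 kb of the gene, and its nearest lay 196248 bp from the canonical TSS, at CYBA. K562 had 11 peaks within 50 kb, 8 of them overlapped in no other line and most inside the long gene, which they covered to 17.1% against 1.15% in Molm13 and 1.22% in OCI-AML3. The ZFPM1 promoter, chr16:88453030-88453279 on the plus strand, is shown because the Molm13 and OCI-AML3 peaks stopped just before the start that follows it. It had the highest GC content of the promoters matched here, and neither GATAA nor CACCC occurs in it.
ZFPM1 promoter: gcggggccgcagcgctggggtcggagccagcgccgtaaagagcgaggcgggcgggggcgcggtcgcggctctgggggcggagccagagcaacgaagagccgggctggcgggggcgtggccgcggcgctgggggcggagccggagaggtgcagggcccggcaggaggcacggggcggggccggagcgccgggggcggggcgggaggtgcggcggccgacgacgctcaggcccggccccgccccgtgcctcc

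TAL1, the helix-loop-helix factor that recruits LMO2 to GATA-bound elements, lies at chr1:47216290-47232225 on the minus strand with 6 annotated TSSs. No AML line marked any of them. K562 marked 5 of the 6 with a peak of 7127 bp at chr1:47226212-47233338, a fold enrichment of 4.87 and a q-value of 5.01e-18, at percentile 89.2 of width and 96.2 of fold enrichment. The locus as a whole differed in the same way. Within 50 kb of TAL1, HL-60 had no peak, Molm13 had 2 peaks with a summed width of 725 bp, OCI-AML3 had 2 peaks with 1585 bp, and K562 had 11 with 29017 bp. Of the 11 K562 peaks, 9 were overlapped in no AML line, the highest count of the 9 genes. The Molm13 peak nearest to the canonical TSS lay 14698 bp away, that of OCI-AML3 19483 bp and that of HL-60, at the TSS of STIL, 51918 bp. K562 also marked a region at chr1:47188055-47190810, at the TSS of PDZK1IP1, that was marked in no other line. The TAL1 promoter, chr1:47232336-47232585 on the minus strand, is shown because it was acetylated in K562 only and holds 2 GATA motifs, given in capitals as TTATC, the reverse complement of GATAA.
TAL1 promoter: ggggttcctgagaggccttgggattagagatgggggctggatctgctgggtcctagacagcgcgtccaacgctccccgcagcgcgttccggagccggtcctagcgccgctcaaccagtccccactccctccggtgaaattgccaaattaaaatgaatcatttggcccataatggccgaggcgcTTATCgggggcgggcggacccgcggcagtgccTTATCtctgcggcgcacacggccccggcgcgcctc

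LYL1, the close relative of TAL1, showed the opposite behaviour. It lies at chr19:13099033-13103161 on the minus strand, and all 3 of its TSSs were marked in all 4 lines. The TSS peak was 4313 bp wide in HL-60 (fold enrichment 7.76), 8310 bp for Molm13 (9.06), 2830 bp for OCI-AML3 (5.46) and 9761 bp for K562 (4.67). By rank the order was different, with percentile 95.3 in K562, 66.8 in OCI-AML3 and, for Molm13 and HL-60, 96.9 and 97.0, so that the width in K562 was not high relative to the list beyond that of HL-60 and Molm13. The gene body was covered to 100% in K562 and in Molm13, 70.9% in HL-60 and 65.6% in OCI-AML3. Of the K562 peak, 87.2% of the bases were also under HL-60 peaks, 85.1% under Molm13 peaks and 65.1% under OCI-AML3 peaks. The 2 helix-loop-helix genes thus differed in every AML line, LYL1 being marked at every start site and TAL1 at none.

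LMO2, the LIM-domain bridge between the helix-loop-helix and GATA factors, was the gene on which K562 stood out least. It lies at chr11:33858576-33892076 on the minus strand, and its TSSs fall into an upstream, canonical start and a cluster of 4 starts that lie 21547 to 22540 bp further downstream, besides 1 more at 26925 bp that no line marked. At the canonical TSS the peak was 4947 bp wide in HL-60 (fold enrichment 6.07), 5845 bp for Molm13 (11.6), 7780 bp for OCI-AML3 (6.98) and 6028 bp for K562 (3.39). At the inner cluster HL-60 had no peak, Molm13 had 5091 bp (4.38), OCI-AML3 8336 bp (4.60) and K562 6140 bp (4.01). HL-60 therefore marked the upstream start alone, and the other lines marked both. The widest peak ranked at percentile 85.1 in K562, the lowest of the 4, 96.5 in OCI-AML3 and, for Molm13 and HL-60, 93.8 and 98.2. Within 50 kb OCI-AML3 had the largest summed width, 37518 bp in 11 peaks, against 25567 bp in 10 peaks in Molm13, 22648 bp in 8 in K562 and 8800 bp in 4 in HL-60. A region 36.4 kb upstream of the canonical TSS, at no protein-coding TSS, reached a fold enrichment of 12.2 in Molm13, 6.68 in HL-60 and 6.37 in OCI-AML3 over 2872, 2808 and 4530 bp, and 291 bp of it were under a K562 peak (2.54). LMO2 had 1 K562 peak without overlap in an AML line, at chr11:33880448-33882502 inside the gene.

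KLF1, the CACCC-binding factor of red cells, lies at chr19:12884422-12887201 on the minus strand with 1 annotated TSS. It was marked by a K562 peak of 11579 bp at chr19:12879959-12891537 (fold enrichment 3.99, q = 1.26e-08), which ranked at percentile 97.1 of width and 70.4 of fold enrichment. This peak covered the whole gene and also the TSSs of the neighbours DNASE2, which encodes a lysosomal nuclease, and GCDH, a mitochondrial dehydrogenase. Its width is therefore not that of KLF1 alone. The AML lines had peaks close by, 2907 bp from the TSS in OCI-AML3 and, for Molm13 and HL-60, 2611 bp and 1715 bp, and those of Molm13 and OCI-AML3 lay at the TSS of DNASE2. The HL-60 peak, 643 bp wide, lay inside KLF1. In sum 12.8%, 32.8% and 26.5% of the bases under the K562 peak were also under HL-60, Molm13 and OCI-AML3 peaks. The neighbourhood of KLF1 is rich in genes, and regions at SYCE2, FARSA and CALR were marked in all 4 lines. The promoter, chr19:12887202-12887451 on the minus strand, is shown because it lies in a part of the K562 domain that no AML peak reached. Its single match to GATAA is in capitals as the reverse complement TTATC.
KLF1 promoter: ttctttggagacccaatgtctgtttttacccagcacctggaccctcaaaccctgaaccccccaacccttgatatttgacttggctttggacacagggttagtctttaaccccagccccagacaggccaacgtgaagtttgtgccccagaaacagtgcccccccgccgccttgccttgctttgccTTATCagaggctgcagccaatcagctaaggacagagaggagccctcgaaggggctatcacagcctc

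NFE2, the leucine zipper factor of the globin locus control region and of platelet formation, carried the widest TSS peak of the set. It lies at chr12:54292111-54301015 on the minus strand. HL-60 had no TSS peak and its nearest, 4571 bp wide, lay 2268 bp upstream of the canonical TSS. Molm13 had a peak of 13488 bp (fold enrichment 5.25), OCI-AML3 peaks of 8625 bp (3.39) and 694 bp (2.40), and K562 a peak of 33929 bp (5.31). Their percentiles of width were 99.1 in Molm13, 96.7 in OCI-AML3 (the wider peak) and 99.9 in K562, and the K562 peak lay at percentile 99.1 of fold enrichment. The K562 peak at chr12:54275401-54309329 ran across the TSSs of CBX5, HNRNPA1 and COPZ1 as well, and those of Molm13 and OCI-AML3 across that of COPZ1. The widths of these peaks are therefore not those of NFE2 alone. Within the K562 peak, 71.7% of the bases were also under Molm13 peaks, 55.1% under OCI-AML3 peaks and 28.5% under HL-60 peaks. The NFE2 locus was thus acetylated around the gene in every line, and the gene body was covered to 100% in K562, 24.6% in OCI-AML3 and, for Molm13 and HL-60, 70.9% and 0.0%.

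GFI1B, the repressor of the erythroid and megakaryocytic lineages, was marked in all 4 lines at its outer starts and in K562 alone at its canonical start. It lies at chr9:132944000-132991687 on the plus strand, and 3 of its 8 annotated TSSs lie 33143 to 34694 bp upstream of the canonical start, beside the divergent TSS of TSC1, which encodes hamartin. At these outer starts the peak was 998 bp wide in HL-60 (fold enrichment 7.79), 1651 bp for Molm13 (8.96), 1978 bp for OCI-AML3 (5.27) and 2543 bp for K562 (4.69). Each of these peaks lay at the TSS of TSC1 as well, so that they cannot be assigned to GFI1B. At the canonical TSS only K562 had a peak, of 8126 bp (3.53), at percentile 92.1 of width but 44.4 of fold enrichment. Inside the gene HL-60 had a peak of 712 bp (2.92) 3583 bp beyond the canonical TSS. The widest region of GFI1B that was marked in K562 only lay 15.1 kb downstream of the canonical TSS at chr9:132993841-133004970, beyond the end of the gene and at no protein-coding TSS, and was 11130 bp wide with a fold enrichment of 3.10.

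**Figure D2:**
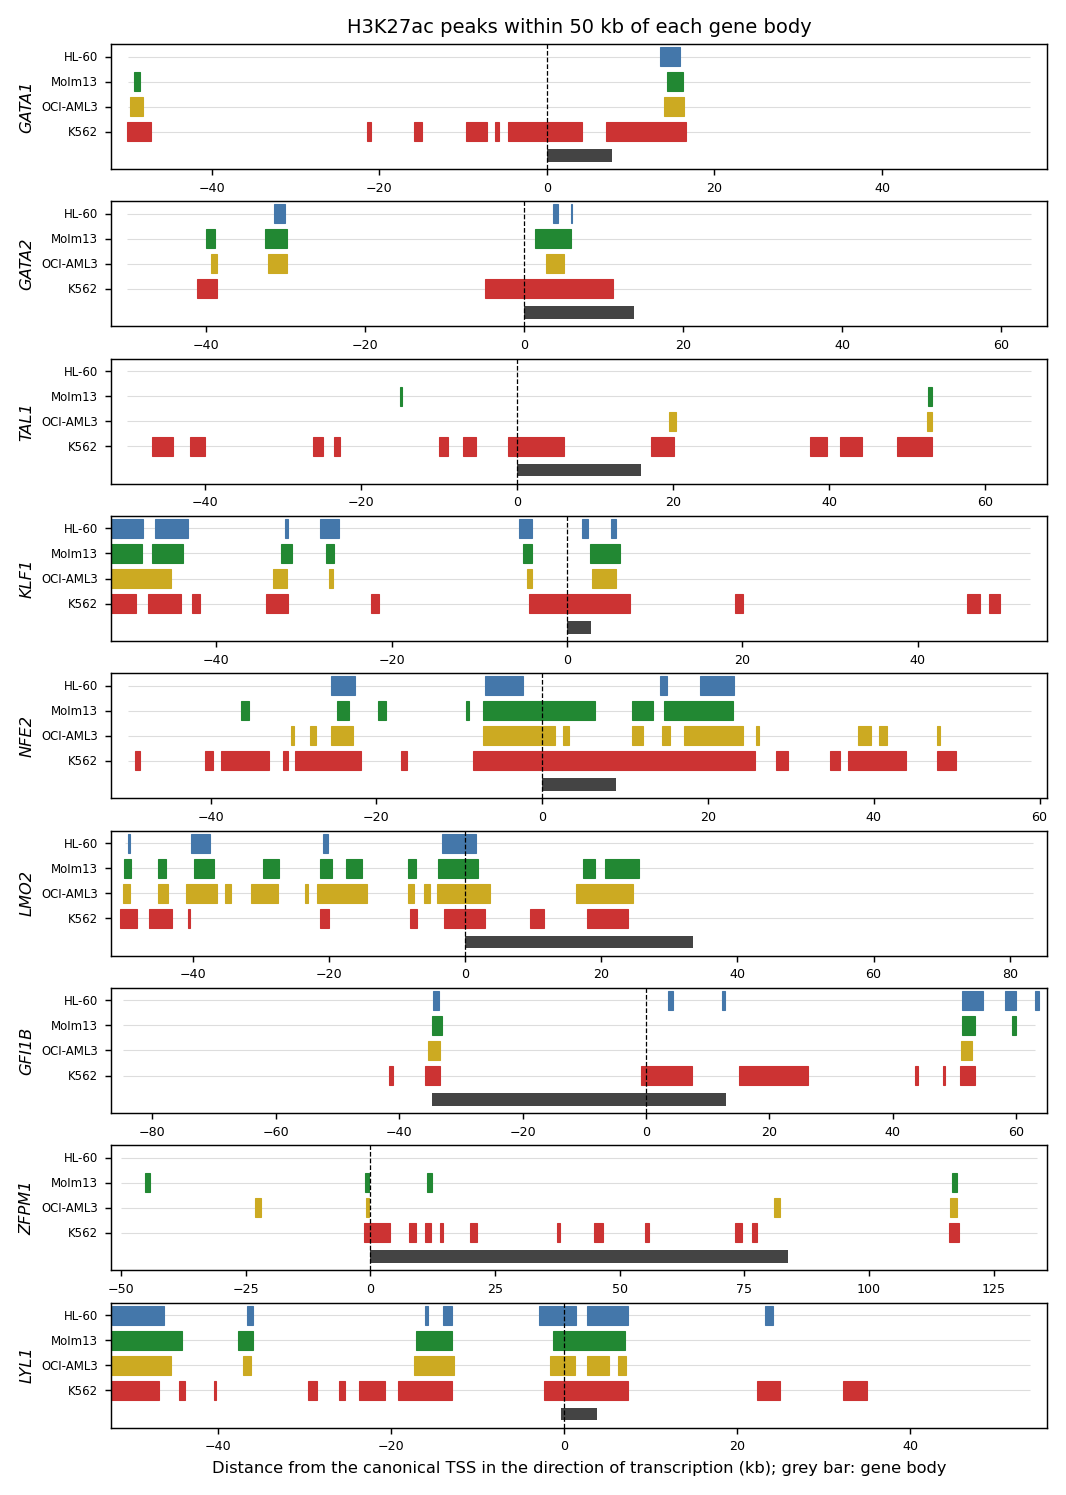
H3K27ac peaks (coloured blocks, 1 row per cell line) within 50 kb of each gene body, by distance in kb from the canonical TSS (dashed line) in the direction of transcription, with the gene body as a dark bar. TAL1 and ZFPM1 have many peaks in K562 and few in the AML lines, whereas LMO2 and LYL1 have peaks in all lines. The peak 29.8 kb upstream of GATA2 is present in the 3 AML lines and not in K562.

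Across the 9 loci, K562 had 76 peaks within 50 kb of a gene body, OCI-AML3 47, Molm13 41 and HL-60 32, with summed widths of 264.6, 117.5, 111.0 and 68.0 kb. The median number of peaks per gene was 4 in each AML line and 9 in K562, while the medians of all protein-coding genes were 2, 3 and 3 in HL-60, Molm13 and OCI-AML3 and 4 in K562. The median summed width was 25.79 kb in K562, 5.45 kb in OCI-AML3 and, for Molm13 and HL-60, 8.44 kb and 8.13 kb, beside 6.60, 5.50, 4.68 and 1.99 kb over all protein-coding genes. The summed width thus lay above the median of all genes in K562, in HL-60 and, by less, in Molm13, and near it in OCI-AML3. The number of peaks was not highest in K562 for 3 genes. NFE2 had 11 in K562 and 12 in OCI-AML3, LMO2 had 8 in K562 against 10 for Molm13 and 11 for OCI-AML3, and GATA2 had 2 in K562 and 3 in each AML line. The K562 peaks of GATA2 nevertheless summed to 18734 bp, against 8440 bp for Molm13, 5453 bp for OCI-AML3 and 2258 bp for HL-60.

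The share of the gene body under a peak in K562 was 100% for KLF1, NFE2 and LYL1, 81.4% for GATA2, 63.4% for GATA1, 37.7% for TAL1, 33.3% for LMO2, 19.9% for GFI1B and 17.1% for ZFPM1, and the 3 longest genes were the least covered. The median was 63.4% in K562, 2.85% in OCI-AML3 and, for Molm13 and HL-60, 6.08% and 4.75%, and over all protein-coding genes 2.61%, 2.43%, 1.74% and 0.26%. LMO2 was again the exception, with a body covered slightly more in OCI-AML3, 35.8%, than in K562.

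**Figure D3:**
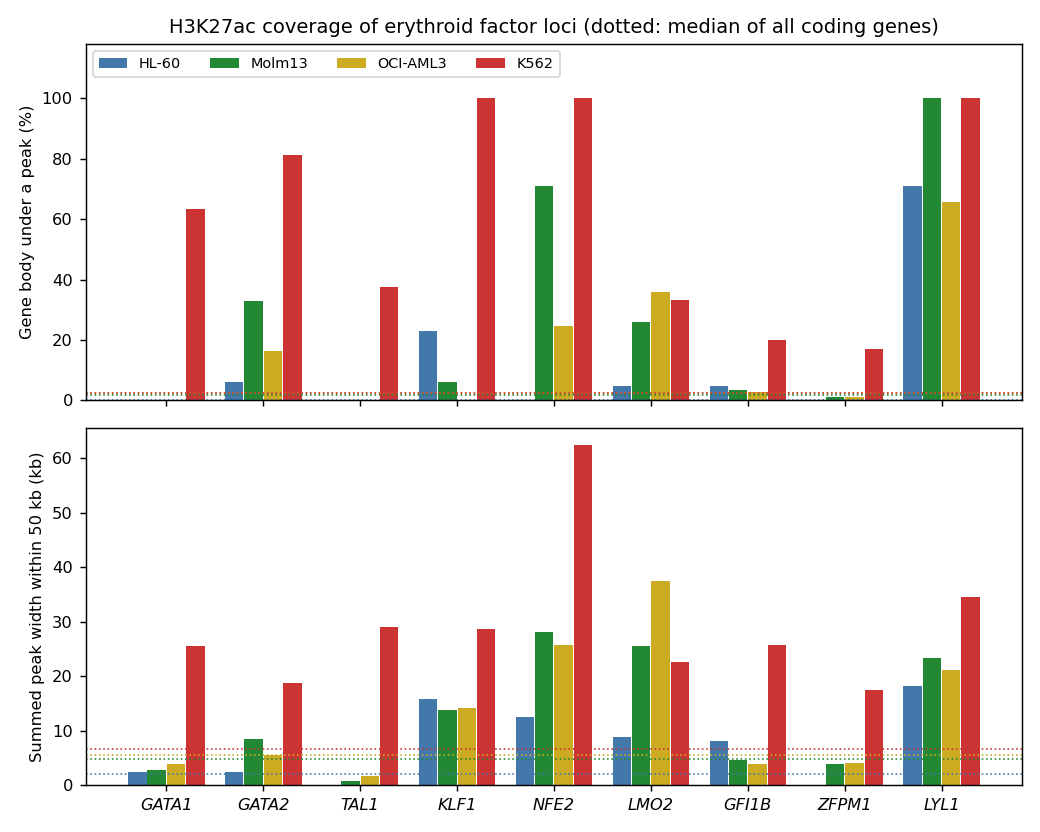
Percent of each gene body under an H3K27ac peak (top) and summed width in kb of the peaks within 50 kb (bottom), 1 bar per cell line, each from 1 library and so without error bars. Dotted lines give the median of all protein-coding genes in the list of the same colour. The K562 bar is the highest for every gene except LMO2 in both panels, and equals the Molm13 bar for the body of LYL1.

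Many of the K562 peaks near these genes had no counterpart in the AML lines, and the same was true of the K562 list as a whole. Of the 76 peaks, 43 were overlapped by no AML peak, which is 56.6% (95% Wilson interval 45.4 to 67.1, counting error only), and the share in the whole K562 list was 56.0%. In the AML lines the same share lay below that of the whole list. In HL-60, 2 of 32 peaks had no overlap in another line (6.25%, 1.73 to 20.1) against 30.7% of the list. In Molm13 it was 4 of 41 (9.76%, 3.86 to 22.5) against 27%, and in OCI-AML3 7 of 47 (14.9%, 7.41 to 27.7) against 29.1%. Peaks are not replicates, and these intervals do not carry over to other libraries of the same lines. The K562 peaks without overlap were unevenly divided, from 9 of 11 at TAL1, 8 of 11 at ZFPM1 and 5 of 7 at GATA1 to 1 of 8 at LMO2 and 0 of 2 at GATA2. Of the 92 merged regions 43 were marked in K562 alone, 16 in all 4 lines and 18 in AML lines alone, against 28.0%, 11.7% and 51.0% of the 74697 regions merged from the 4 whole lists.

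The sequences under these peaks were searched on both strands for the motifs that the factors are known to bind. A composite of the E-box remnant CTG followed by 9 free bases and GATA, the arrangement bound by the TAL1 and GATA1 complex, had 36 matches in 22 of the 76 K562 peaks. This is 1.36 matches per 10 kb, beside 1.19 per 10 kb over all K562 peaks, 19.1% of which hold a match. A wider peak is more likely to hold a match and widths were not matched, so only the rates per length can be compared. GATAA occurred 12.8 times per 10 kb near the genes against 17.1 over all K562 peaks, and CACCC 37.3 times against 25.4. The peaks near these genes thus held fewer GATAA and more CACCC matches per length than K562 peaks in general. Of the 36 matches, 26 lay where K562 had a peak and no AML line did, and 14 of these ended in the full GATAA. The same share was not computed for matches under all K562 peaks, so 26 of 36 cannot be read as a trait of these loci. Of all K562 peaks, 56.0% were overlapped by no AML peak. The 8 whose 60-base window is free of exons near the genes with a canonical start marked in K562 alone, or near ZFPM1, are shown 5′ to 3′ on the strand of the match, with the composite in capitals, because they pair the motifs of TAL1 and GATA1 at places acetylated in K562 alone. Matches of the same kind near LMO2 and LYL1, also in exon-free windows and under a K562 peak alone, are not shown. A match of letters is not a measured binding site. The 8 shown lie 9.9 kb into GATA2 (minus strand, chr3:128483290-128483349), 2.4 kb upstream of GATA2 (minus, chr3:128495579-128495638), 50.9 kb downstream of the TAL1 start (minus, chr1:47181291-47181350), 9.9 kb upstream of TAL1 (plus, chr1:47242058-47242117), 0.9 kb into KLF1 (plus, chr19:12886328-12886387), 25.6 kb downstream of the GFI1B start (minus, chr9:133004226-133004285), and 2.7 and 56.0 kb into ZFPM1 (minus, chr16:88455971-88456030 and chr16:88509218-88509277).
GATA2 +9.9 kb: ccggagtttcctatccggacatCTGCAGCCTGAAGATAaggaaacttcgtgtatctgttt
GATA2 −2.4 kb: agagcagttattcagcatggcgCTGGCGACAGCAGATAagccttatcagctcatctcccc
TAL1 +50.9 kb: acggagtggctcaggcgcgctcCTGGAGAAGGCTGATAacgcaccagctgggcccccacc
TAL1 −9.9 kb: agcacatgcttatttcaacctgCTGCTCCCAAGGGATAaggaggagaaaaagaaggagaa
KLF1 +0.9 kb: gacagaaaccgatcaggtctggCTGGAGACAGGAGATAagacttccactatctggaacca
GFI1B +25.6 kb: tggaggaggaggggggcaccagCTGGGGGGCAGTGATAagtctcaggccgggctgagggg
ZFPM1 +2.7 kb: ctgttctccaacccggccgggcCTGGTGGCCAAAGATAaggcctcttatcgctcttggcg
ZFPM1 +56.0 kb: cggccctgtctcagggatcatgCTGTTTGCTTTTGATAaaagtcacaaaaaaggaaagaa

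The promoters themselves differed in base composition. RefSeq promoters of 300 bases, 250 before and 50 after the start (GRCh38.p14), were matched for 7 of the 9 genes, the others being NFE2 and LMO2. Observed over expected CpG was 0.20 at GATA1, 0.25 at KLF1, 0.36 at GFI1B, 0.55 at LYL1, 0.74 at GATA2, 0.94 at ZFPM1 and 0.97 at TAL1, with a median of 0.76 over 15843 protein-coding genes. GATA1 and KLF1, at percentiles 12.9 and 16.2, and TAL1, at 83.8, were the 3 genes marked in K562 alone, so this pattern was seen at CpG-poor and CpG-rich starts alike. The GFI1B window lies 33163 bp from the canonical start, on the side of TSC1. GATAA was present in 3 of the 7 promoters (TAL1, KLF1 and LYL1) and in 18.2% of all, CACCC in 4 of 7 and in 62.9% of all. The composite occurred in the LYL1 window alone, and in 1.45% of all promoters. The NFE2 motif TGACTCA occurred in none of the 7 and in 3.66% of all, and the E-box CANNTG in 3 of 7 and 64.5% of all.

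Related genes were compared in lists set by known function, but chosen when earlier results of these data were known. Their counts are therefore descriptive. Complex partners and cofactors (25 genes such as BACH1, BCL11A, CBFA2T2 and CBFA2T3) were marked at a TSS in 21 cases in K562, 25 in OCI-AML3 and, for Molm13 and HL-60, 23 and 21, and none was marked in K562 alone. The shares of all protein-coding genes were 55.9%, 57.7%, 53.9% and 44.7%, and 4.78% for K562 alone, so that a count of 0 of 25 in K562 alone is near the background. BACH1, a repressor that shares the small MAF partners of NFE2, had a TSS peak of 19802 bp in K562 against 1643 (HL-60), 2692 (Molm13) and 2780 bp (OCI-AML3), and CBFA2T3, a corepressor of the TAL1 complex, of 11803 bp against 4397, 5079 and 4956 bp. BCL11A, which represses fetal globin genes, had peaks of 7402, 8308 and 8423 bp in the AML lines and none in K562. Of the ETS factors FLI1 and ERG, FLI1 was marked in each AML line and not in K562, and ERG in OCI-AML3 alone. Of the 25 partners 18 were marked in all 4 lines, against 40.5% of protein-coding genes.

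Other members of the same gene families were counted in the same way. Of 30 paralogues, 14 carried a TSS peak in K562, 16 in OCI-AML3 and, for Molm13 and HL-60, 12 and 10, and 12 in none. These shares lay below those of all protein-coding genes, which were 55.9%, 57.7%, 53.9% and 44.7% in the same order. GATA5 and NHLH1 were marked in K562 alone, with peaks of 1756 and 2957 bp, and 2 of 30 is close to the 4.78% of protein-coding genes with that pattern. GFI1, the myeloid counterpart of GFI1B, had no TSS peak in K562 and peaks of 18502 bp in OCI-AML3 and, for Molm13 and HL-60, 14866 bp and 9455 bp. GFI1 was thus marked in the AML lines alone, the reverse of GFI1B at its canonical start. ZFPM2, a paralogue of ZFPM1 that was picked out after its values were seen, had a TSS peak of 21232 bp in K562, 331 bp in OCI-AML3 and none in HL-60 or Molm13.

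The known erythroid targets of these factors were mostly marked in K562 alone. Of 21 such genes, 17 were marked in K562, 5 in OCI-AML3 and, for Molm13 and HL-60, 4 and 4, and 12 of them in K562 alone, against 4.78% of protein-coding genes. The pattern did not hold for all, as 4 (HBA1, HBA2, SLC4A1 and AHSP) had no TSS peak in any line. Another 4 were marked in all 4 lines. Among these was EPOR, with a TSS peak of 8852 bp in Molm13 against 2337 bp in K562. The globin genes HBG1 and HBG2 lay under 1 K562 peak of 21706 bp and HBE1 under a peak of 25904 bp. RHAG and ANK1, which encode membrane proteins of the red cell, had K562 peaks of 12180 and 14307 bp, and ALAS2, the first enzyme of haem synthesis in red cells, one of 2884 bp. HBB, the adult globin gene, had 1567 bp, and HBZ, the embryonic zeta globin gene, 6008 bp. The blood group and membrane genes GYPB, EPB42 and KEL were also among the 12, with TSS peaks of 3616, 1402 and 1497 bp. Of the 10 myeloid factors, by contrast, 6, 9 and 9 were marked in HL-60, Molm13 and OCI-AML3 and 3 in K562, and 6 (among them CEBPA, CEBPD, CEBPE and GFI1) were marked in an AML line and not in K562, against 8.72% of protein-coding genes.

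**Figure D4:**
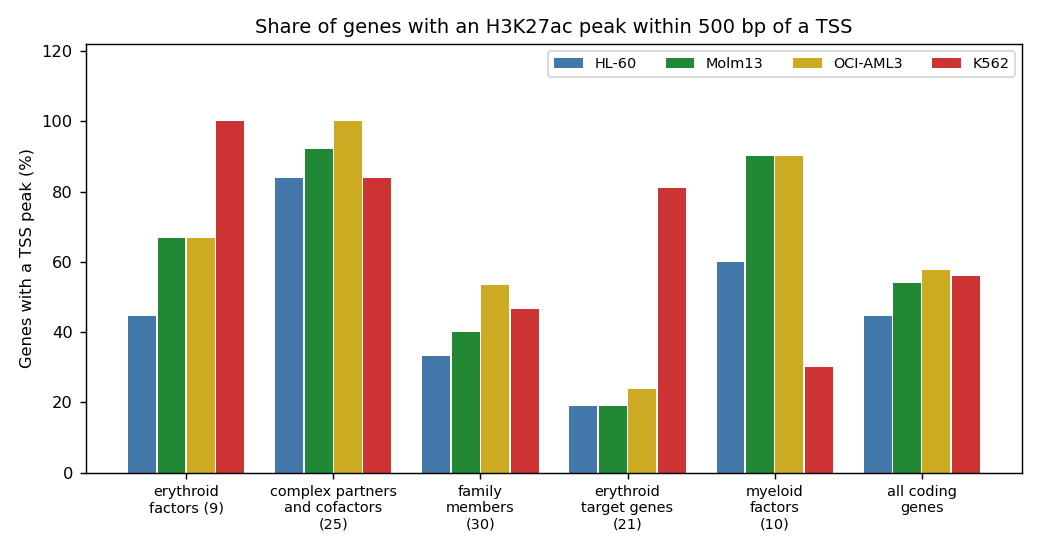
Percent of genes with an H3K27ac peak within 500 bp of a TSS in each cell line (1 bar per line, 1 library each), for the 9 erythroid factor genes, 4 related gene lists with their sizes in parentheses, and all protein-coding genes. The K562 bar is the highest for the factors and for the erythroid targets and the lowest for the myeloid factors, and cofactors are high in every line.

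The genes most like each member were found from the within-list width percentiles of the widest TSS peak over the 4 lines, with 0 for no peak, by Euclidean distance. For GATA1, HCN3 and SLC25A21 were among the 3 nearest, at distances of 0.03 and 0.11 percentile points. The 3 nearest were, for TAL1, SLC25A42, FCHO2 and THRB (0.02, 0.15 and 0.18), and for KLF1 SCAND3, CMBL and OR2AT4 (0.07, 0.08 and 0.17). For GATA1, TAL1 and KLF1 the AML values were all 0, so that likeness rested on the K562 width alone. NFE2 was closest to PIM1 (1.18), SORT1 (5.66) and SLC11A1 (6.33), LMO2 to ACTB (2.58), COG4 (3.19) and SF3B3 (3.19), and ZFPM1 to RASIP1 (5.78), DNAAF3 (5.89) and AGO1 (5.92). GATA2 was closest to NOTCH4 (11.54), DNASE2 (14.97) and SEPTIN6 (15.8), GFI1B to BCL2L1 (7.27), CLOCK (7.53) and HOMEZ (8.84), and LYL1 to CASP9 (11.29), ATXN2L (11.84) and PURB (12.34). GATA2 lay farthest from its 3 nearest genes.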

How the data were processed

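H3K27ac peak lists of 4 cell lines were analysed, 1 library each. Per the labels, each immunoprecipitation used 15 µg of chromatin (antibody, 2.5 µg). The authors trimmed reads with Trim Galore (version 0.4.5), aligned them to hg38 with Bowtie2 (version 2.3.4 per the processing notes), kept uniquely mapped reads and called broad peaks with MACS2 (version 2.1.1) at a q-value of 0.05. The control library is not given in the sources used here. The deposited values of a peak are a score, the fold enrichment (a ratio to the local background), and the −log10 of its p-value and q-value. The largest q-value of a list was 0.0947 to 0.0995. Uniquely mapped reads under-represent near-identical copies, and unknown depth limits comparisons of width and peak number between lists.

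Genes, TSSs and canonical transcripts came from GENCODE v44 on hg38. A gene was marked where a peak lay within 500 bp of a TSS, and peaks within 50 kb of the gene body were assigned to it. Overlap required 1 bp. Each group had 1 library, so no test was run; Wilson 95% intervals cover counting error only. The 9 genes are all named. From the lists, genes marked in K562 alone could be named, and up to 6 others in alphabetical order. The values of 2 genes that these rules name are not reported here. Genes, lists and likeness rules were chosen with earlier results of these data known. Alternatives were a q-value of 0.001, equal numbers of peaks, merging within 1 kb, other distances, the canonical TSS only and a stricter overlap. Python 3.11.15, NumPy 2.4.6, pandas 2.3.3 and statsmodels 0.14.6 were used. The search was tested on simulated peaks, which recovered 200 of 200 planted genes among 20033, and the K562 count of 11199 marked genes was the same with bedtools. Coordinates are 1-based. The dCas9 list, from K562 cells with LTR2B sgRNAs, was read only for peaks near the genes.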

Additional observations from a re-analysis of the deposited data

How the results depend on the processing

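Of 73 summary values recomputed under other settings, 58 stayed within 1.5 times or 1 interval of the reported value and 15 moved. The TSS peak widths of each gene and line, repeated over the settings that concern them, gave 252 values, of which 235 stayed and 17 moved. A width of 0, meaning no peak, counted as stayed where it remained 0, and settings that only remove peaks could not change it. At a q-value below 0.001, K562 kept 34 peaks within 50 kb of the genes and OCI-AML3 kept 33, while Molm13 kept 25 and HL-60 22. The higher peak number of K562 than of OCI-AML3, 76 against 47 in the full lists, was thus almost absent at this threshold. The share of the 34 K562 peaks without AML overlap was 35.3% (37.6% in the whole list so filtered). The median covered share of the gene body was then 0% in HL-60 and 3.45% in Molm13. With the 20772 strongest peaks of each list, 44 K562 peaks, 31 OCI-AML3 peaks and 27 Molm13 peaks remained near the genes. With the canonical TSS only, 2 genes were marked in HL-60 and 5 in K562 alone. Within 20 kb, there were 18, 21, 23 and 37 peaks in HL-60, Molm13, OCI-AML3 and K562. When 50% of a K562 peak had to be covered, 77.6% counted as without AML overlap, and 67.7% in the whole list. At a q-value below 0.001, GATA2 lost its TSS peak in Molm13 and was no longer marked in all 4 lines. When the peak had to cover the TSS itself, ZFPM1 lost its marks in Molm13 and OCI-AML3 and became the fourth gene marked in K562 alone. GATA1 and TAL1 were marked in K562 alone in every setting run. KLF1 was too, except when peaks at the TSS of another protein-coding gene were left out, a setting chosen after seeing the data, which removed its K562 peak. The same setting removed the TSS peaks of NFE2 in K562 and Molm13 and left 694 bp in OCI-AML3. That setting left 7, 5, 4 and 3 marked genes in K562, OCI-AML3, Molm13 and HL-60, put GFI1B among the 3 marked in K562 alone, and made 6 rather than 8 genes widest in K562. The fewer peaks that such filters leave are part of their construction, and causes beyond that were not tested. No paired analysis was possible because each line has 1 library and no test was run.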

Other observations

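Within 50 kb of the 9 genes, the dCas9 peak list of K562 cells carrying LTR2B sgRNAs held 1 peak. It lay inside ZFPM1, 73.6 kb beyond the canonical TSS, at chr16:88526927-88527043, was 117 bp wide and had a fold enrichment of 4.63 (q = 5.19e-05). In empty-vector K562 cells the position was under an H3K27ac peak at chr16:88526345-88527786, and the 3 AML lines had no peak there. The dCas9 list has no replicate and no control list was analysed here.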
